A study of Mus musculus with 8 samples.

Results

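Integrins are paired receptors of the cell surface, built from 1 alpha and 1 beta chain, that hold cells to the matrix and pass signals inward. Laminins are cross-shaped proteins of basement membranes, each built from an alpha, a beta and a gamma chain, and several integrins bind them. Fibroblasts attach to collagen and fibronectin mainly through integrins that carry the beta 1 chain or the alpha v chain, while integrins with the beta 2 and beta 7 chains belong to leukocytes and those with beta 4 and beta 6 to epithelia.

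The genes described here are those whose symbol on the array's annotation is Itga, Itgb, Lama, Lamb or Lamc with a number, or Itgav. They came to 31 of the 18193 named genes, with 12 integrin alpha, 9 integrin beta and 10 laminin genes. The array holds 70 probe sets for them, several for 19 of the genes, and the brightest on average stood for its gene. The interacting proteins Itgb1bp1, Itgb1bp2 and Itgb3bp share the spelling but are not chains and were set aside. Genes with a mean log2 value below the 25th percentile of all genes, at 4.17, were left out of the tests. This kept 26 of the 31 genes, with 11 integrin alpha, 7 integrin beta and 8 laminin genes.

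The cells were embryonic fibroblasts isolated at E14.5 from mice of the strain C57BL6/J. Hif-p4h-1, encoded by Egln2, is a prolyl hydroxylase that acts with oxygen to mark HIF (hypoxia-inducible factor) alpha chains for degradation. The 4 groups were wild type in normoxia, wild type in hypoxia, Hif-p4h-1 knockout in normoxia and Hif-p4h-1 knockout in hypoxia, with 2 arrays each, and the growth protocol describes the mouse lines as +/+ and -/- for the gene. The labels mark 1 array of each group as a second one, and these 4 arrays are called the second set. No source used here states the oxygen level, the exposure time, the allele or whether a group's arrays came from separate embryos. The p-values therefore cover only array-to-array spread, possibly technical. All values are log2 expression values, and a difference of 1 is a 2-fold difference.

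Egln2 was lower in the knockout in normoxia, by -0.79 ± 0.089 (SE, limma adjusted p = 0.0489), and over both oxygen conditions, by -0.54 ± 0.063 (limma adjusted p = 0.0225), with signal left in the knockout arrays. In hypoxia its difference of -0.29 ± 0.089 did not pass (limma adjusted p = 0.725), and it rose with hypoxia in the knockout by 0.59 ± 0.089 (limma adjusted p = 0.00919). The knockout label was therefore not borne out by a call in hypoxia. There the knockout array read lower in each set, at -0.29 and -0.28. Which part of the gene the probe set reads is not stated. The HIF-driven genes Egln3, Car9, Bnip3, Pdk1, Slc2a1 and Ankrd37 rose with hypoxia in both genotypes, 6 of 6 in each. The median rise was 3.61 in wild type and 2.99 in knockout, with no call for the interaction. In normoxia all 6 had a positive knockout difference (median 0.51), and Bnip3 was called, at 0.83 ± 0.0845 (limma adjusted p = 0.0273). In hypoxia none was called by genotype (median -0.12). All 12 fibroblast markers followed were above the filter, at a mean of 11.4 to 11.6 per array. Other cell types were read unequally. The mean of 13 macrophage and leukocyte markers was 7.80 and 7.28 in the wild-type arrays of the first set (normoxia, then hypoxia), 6.32 and 6.07 in those of the second, and 5.37 to 5.85 in the 4 knockout arrays. Skeletal muscle markers, 8 in number, had a mean of 6.90 and 6.99 in the wild-type arrays of the first set and of 4.57 to 5.01 in the other 6 arrays. In such bulk samples, fewer cells of a type and less RNA per cell cannot be told apart.

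Promoters are shown first for the genes with the clearest fall under hypoxia, so that they can be read beside the values. Promoter sequences from RefSeq, build GRCm38.p6, were found for 21 of the 31 genes, with 24 start sites. The 250 bases before the start site were searched for ACGTG and GCGTG, the core letters that HIF binds, on both strands. ACGTG is also part of the E-box CACGTG, which other factors bind. The sequences of Itga8 (chr2:12301945-12302194, minus strand), Itgb1 (chr8:128685404-128685653, plus strand) and Itga9 (chr9:118711442-118711691, plus strand) read as follows, 5′ to 3′, with matches in capitals.
Itga8: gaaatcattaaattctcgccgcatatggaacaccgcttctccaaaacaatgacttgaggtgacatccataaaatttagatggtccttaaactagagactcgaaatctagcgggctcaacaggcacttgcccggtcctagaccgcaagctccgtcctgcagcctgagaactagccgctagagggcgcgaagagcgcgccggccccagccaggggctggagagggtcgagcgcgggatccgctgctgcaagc
Itgb1: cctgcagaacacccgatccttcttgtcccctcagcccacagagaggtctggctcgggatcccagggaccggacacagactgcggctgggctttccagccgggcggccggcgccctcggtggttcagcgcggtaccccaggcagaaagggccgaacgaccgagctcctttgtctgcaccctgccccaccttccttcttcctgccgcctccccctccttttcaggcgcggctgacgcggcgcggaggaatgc
Itga9: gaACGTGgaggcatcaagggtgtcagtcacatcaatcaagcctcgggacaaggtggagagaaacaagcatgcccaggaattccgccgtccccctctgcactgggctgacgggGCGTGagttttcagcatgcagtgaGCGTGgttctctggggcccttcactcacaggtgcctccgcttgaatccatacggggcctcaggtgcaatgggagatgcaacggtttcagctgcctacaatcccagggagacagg
Itga9 had 3 matches, and Itga8 and Itgb1 had none. Of the 24 start sites of integrin and laminin genes, 5 had a match (20.8%), those of Itga9, Itgb5, Itga2, Lamb1 and 1 of the pair of Lamb3, against 38.6% of all 32851 start sites in the table. A match is a description of letters and not a bound site.

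By the 1 probe set used per gene, Itga8, Itgb1, Itga9, Itga1, Itgb5 and Lama1 fell under hypoxia. Further probe sets of Itga6 and Itgav rose, as given below. Over both genotypes, 6 of the 26 genes tested fell and none rose by the limma fit, and 20 did not pass. Among all 13647 genes tested 28.7% were called, 15.2% lower and 13.6% higher, beside 23.1% lower here. The median change was 0.02 over the 26 genes and 0.01 over all genes, and the medians by class were 0.04 for alpha, 0.15 for beta and -0.16 for laminin chains. The fallers were 3 of 11 alpha chains (Itga8, Itga9 and Itga1), 2 of 7 beta chains (Itgb1 and Itgb5) and 1 of 8 laminin chains (Lama1). With no replicate block none of the 6 was called (limma adjusted p of 0.0618 to 0.648). Some markers of other cells moved with hypoxia too: of 12 tested macrophage and leukocyte markers Lyz2 and Msr1 fell and Cd14 rose, and of 9 tested epithelial markers Krt19 rose by 1.91 and Epcam fell by 0.41. No muscle marker was called, and the part of these cells in the results was not tested.

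**Figure D1:**
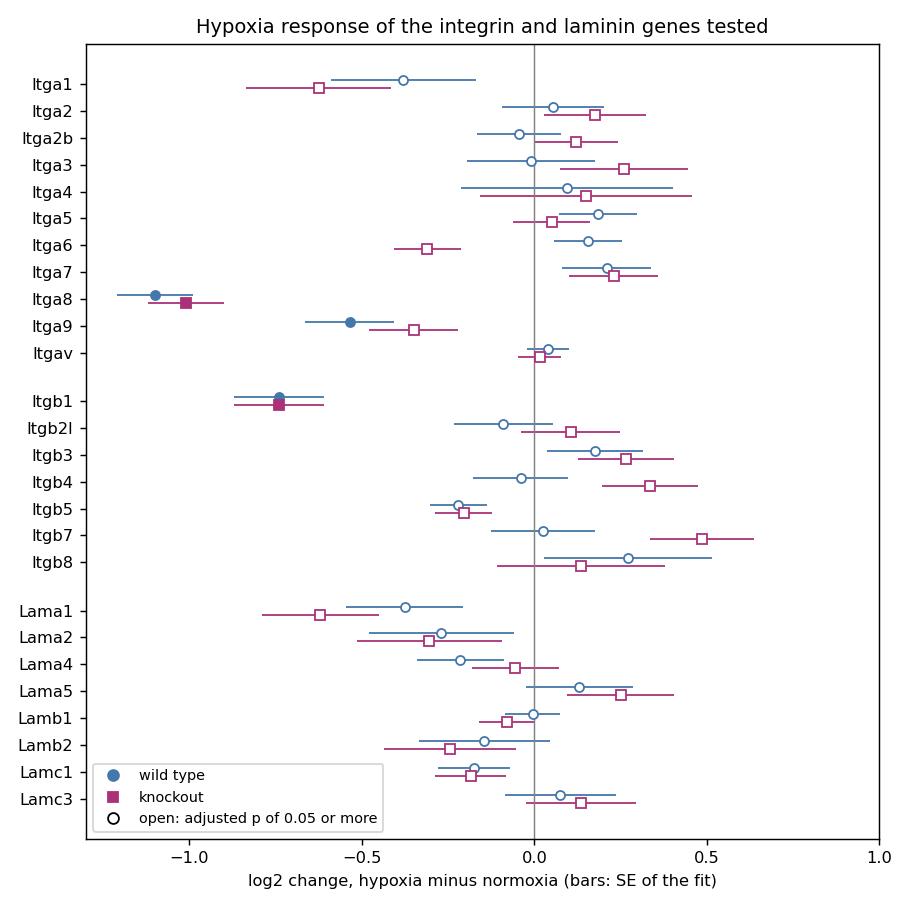
Log2 change from normoxia to hypoxia for the 26 tested genes, in wild type (blue circles) and knockout (magenta squares), with bars for the SE of the fit and filled symbols for an adjusted p under 0.05. Itga8 and Itgb1 are filled in both genotypes and lie farthest left, at -1.10 and -1.01 and at -0.74 each, and no filled symbol lies right of 0.

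Itga8 encodes a chain that binds RGD-containing ligands such as nephronectin and is known for its role in kidney development. Its log2 value was 9.04 and 9.53 in the normoxic wild-type arrays (first, then second set) and 8.02 and 8.35 in the hypoxic ones. In knockout it was 9.29 and 9.73 in normoxia and 8.45 and 8.55 in hypoxia. Each hypoxic array lay below each normoxic one. Itga8 fell by 1.10 ± 0.11 in wild type (SE, n = 2 per group, limma adjusted p = 0.00128) and by 1.01 ± 0.11 in knockout (limma adjusted p = 0.00274), with no call for the difference of these responses (0.09 ± 0.16, limma adjusted p = 1). Over both genotypes it fell by 1.06 ± 0.078 (limma adjusted p = 1.4e-04). Its further probe set, of lower mean, fell by 1.84 ± 0.16 in a fit across all 34945 named probe sets (limma adjusted p = 2.1e-04). Both hypoxia calls by genotype held in each of the 8 fits without 1 array, while a fit of the knockout arrays alone did not call it (limma adjusted p = 0.0604). With no replicate block the wild-type call (limma adjusted p = 0.26), the knockout call (0.463) and the joint call (0.0618) were lost.

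Itgb1 encodes the beta chain shared by most matrix-binding integrins of fibroblasts. Wild-type arrays read 12.53 and 12.98 in normoxia and 11.85 and 12.18 in hypoxia. Knockout arrays read 12.61 and 13.14 in normoxia and 12.18 and 12.09 in hypoxia. All hypoxic arrays again lay below all normoxic ones. The fall was 0.74 ± 0.13 in each genotype (limma adjusted p = 0.00904 in wild type and 0.0145 in knockout), and 0.74 ± 0.092 over both (limma adjusted p = 0.00107). In knockout the first set gave -0.43 and the second -1.05, and the call was lost at -0.48 without knockout hypoxia replicate 2, at -0.59 without knockout normoxia replicate 2 and at -0.89 without knockout normoxia replicate 1. In wild type the call was lost without hypoxia replicate 1 (-0.72) or normoxia replicate 2 (-0.64). Of the 5 further probe sets of Itgb1, 3 were called over both genotypes, at -0.58, -0.34 and -0.57, while the 2 of lowest mean gave -0.26 (limma adjusted p = 0.193) and 0.0025 (limma adjusted p = 0.989). With its probe sets averaged the changes were -0.39 in wild type and -0.44 in knockout, without a call (limma adjusted p = 0.0703 and 0.0642).

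Itga9 encodes a chain that binds tenascin-C and other ligands without an RGD site. Wild-type values were 5.86 and 6.40 for normoxia, then 5.24 and 5.95 for hypoxia. Knockout arrays gave 5.66 and 6.17 in normoxia and 5.26 and 5.87 in hypoxia. Normoxic and hypoxic arrays overlapped because the second set was higher throughout, but each pair of arrays of a set fell. Over both genotypes the change was -0.44 ± 0.091 (SE, limma adjusted p = 0.00847). It was -0.54 ± 0.13 in wild type (limma adjusted p = 0.027) and -0.35 ± 0.13 in knockout (limma adjusted p = 0.127), and the difference between these responses was 0.19 ± 0.18 (limma adjusted p = 1). The wild-type call was lost in 4 of the 8 fits without 1 array, those without a wild-type array. A further probe set of Itga9 was called at -0.53, and another gave 0.15 (limma adjusted p = 0.50). Averaged over its probe sets, the wild-type change was -0.31 (limma adjusted p = 0.0883).

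**Figure D2:**
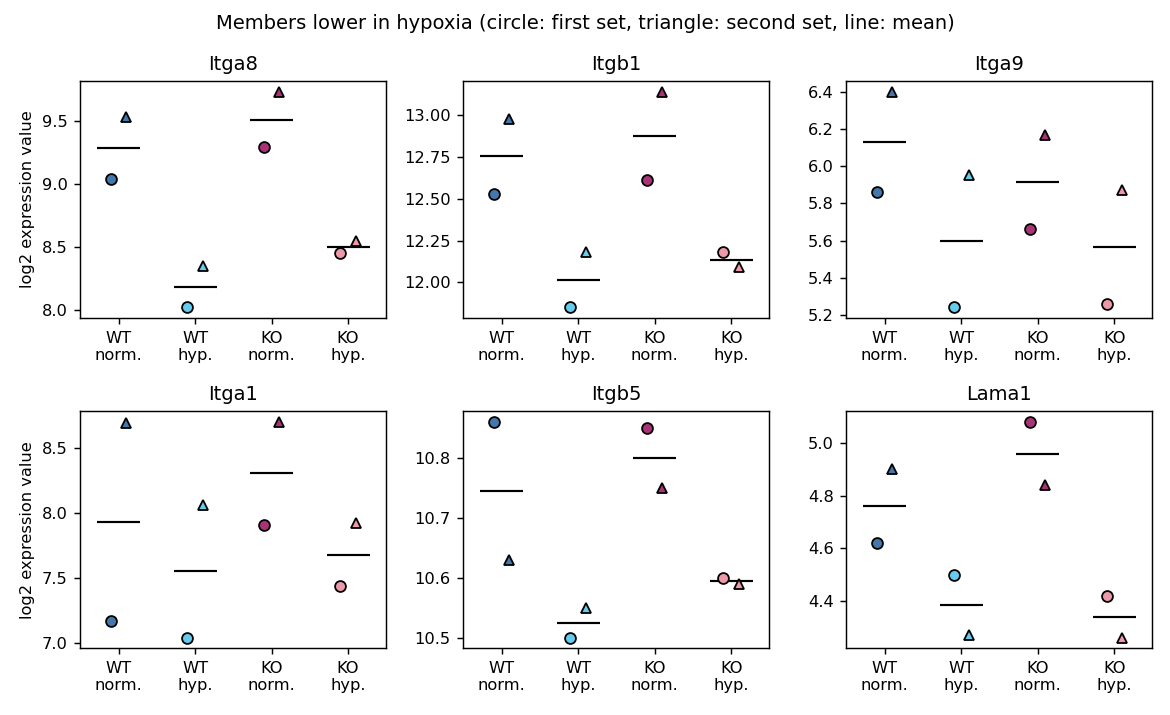
Log2 expression values per array of the 6 genes that fell over both genotypes, by group, with circles for the first and triangles for the second set and a line at the mean of 2 arrays. The axes differ between panels and do not start at 0. Hypoxic arrays lie below normoxic ones without overlap for Itga8, Itgb1, Itgb5 and Lama1. Itga9 overlaps because the sets lie apart. Itga1 overlaps within the first set too, with knockout hypoxia at 7.44 and wild-type normoxia at 7.17.

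Itga1, the collagen receptor chain, Itgb5, which pairs with alpha v to bind vitronectin, and Lama1, the alpha chain of the laminin of early embryonic basement membranes, were called over both genotypes only. Itga1 read 7.17 and 8.69 for wild-type normoxia, 7.04 and 8.06 for wild-type hypoxia, 7.91 and 8.70 for knockout normoxia and 7.44 and 7.92 for knockout hypoxia. The second set lay above the first in each group. Its change was -0.50 ± 0.15 (SE, limma adjusted p = 0.036), or -0.30 for the first set alone and -0.71 for the second. Itgb5 lay between 10.63 and 10.86 in normoxia and between 10.50 and 10.60 in hypoxia, a small fall of 0.21 ± 0.059 (limma adjusted p = 0.0277) without overlap. Its 3 further probe sets gave -0.12, -0.05 and 0.04 and none was called, so the probe sets of Itgb5 disagree, and their average gave -0.084 (limma adjusted p = 0.227). Lama1 lay between 4.62 and 5.08 in normoxia and between 4.26 and 4.50 in hypoxia, close above the filter, and differed by -0.50 ± 0.12 (limma adjusted p = 0.0162). These calls were less firm than those above. Of the 8 fits without 1 array, 2 kept the call of Itga1, 2 that of Itgb5 and 4 that of Lama1. Itga1 was at -0.31 without wild-type normoxia replicate 2, with the other fits between -0.35 and -0.69, and its averaged probe sets gave -0.29 (limma adjusted p = 0.0744).

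In all, 4 of 26 genes had hypoxic arrays wholly below the normoxic ones and none wholly above, where 15.3% of all genes had no overlap, 8.2% below and 7.09% above. Within wild type 3 of 26 genes fell (Itga8, Itga9 and Itgb1) and none rose, against 8.85% and 7.54% of all genes, or 16.4% together. In knockout 2 fell (Itga8 and Itgb1) and none rose, against 5.13% and 4.98%, or 10.1% together. The genotypes share no array in these comparisons, so the mean differences of Itga8 and Itgb1 come from different arrays of the same 2 sets. The calls in the genotypes are not independent, because the fit uses a shared estimate of each gene's spread over all 8 arrays.

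The other integrin and laminin genes did not pass with hypoxia by the probe sets used. Itgav, the alpha v chain, ranged only from 12.57 to 12.99 over the 8 arrays, and its change over both genotypes was 0.03 ± 0.043 (SE, limma adjusted p = 0.688). A further probe set of it rose by 0.26 ± 0.071 over both genotypes and by 0.40 ± 0.10 in wild type (limma adjusted p = 0.031 and 0.0405 in the fit of all probe sets). For Lamb1 and Lamc1, chains of the laminins that most fibroblasts make, the changes were -0.04 and -0.18. Lama4, of vascular and mesenchymal laminins, gave -0.13 by the probe set used and -0.56 ± 0.11 by the other (limma adjusted p = 0.00755). Itga5, the alpha chain of the fibronectin receptor, gave 0.12 by its probe set of highest mean. Its other probe sets gave -1.35 ± 0.21, -1.49 ± 0.21 and 0.38 ± 0.15, with limma adjusted p of 0.00278, 0.00172 and 0.112. In wild type the first of them read 7.05 and 7.39 in normoxia and 5.48 and 6.32 in hypoxia. The brightest probe set read 7.08 and 8.35 in normoxia and 7.23 and 8.57 in hypoxia. No direction is given for Itga5 for that reason. Over the genes, 10 of 39 further probe sets were called, 8 lower and 2 higher, against 19.8% of all probe sets. No source used here states which part of a transcript each probe set reads, and the cause of the disagreements was not tested.

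Itga6 was the integrin or laminin gene that differed by genotype. It encodes the alpha 6 chain, a laminin receptor that pairs with beta 1 or beta 4. Its log2 value was 9.88 and 9.28 in normoxic wild type (first, then second set) and 9.28 and 8.99 in normoxic knockout. Under hypoxia wild type read 9.94 and 9.53, and knockout 8.98 and 8.67. In hypoxia the groups did not overlap, which held for 8 of the 26 genes, 6 higher and 2 lower in knockout. In normoxia the lower wild-type array equalled the higher knockout array. Itga6 was lower in the knockout by -0.91 ± 0.098 in hypoxia (SE, n = 2 per group, limma adjusted p = 0.0403) and by -0.68 ± 0.069 over both oxygen conditions (limma adjusted p = 0.0136). In normoxia the difference of -0.45 ± 0.098 did not pass (limma adjusted p = 0.349). The knockout array was lower in 4 of 4 pairs of the same set, by 0.96 and 0.86 in hypoxia and by 0.60 and 0.29 in normoxia.

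Few genes differed by genotype in these arrays. The comparison in hypoxia called 4 of all genes (0.0293%) and that over both conditions 35 (0.256%). The second probe set of Itga6 gave -1.08 ± 0.13 in hypoxia (limma adjusted p = 0.14 in the fit of all probe sets), -0.38 ± 0.13 in normoxia (limma adjusted p = 0.89) and -0.73 ± 0.094 over both (limma adjusted p = 0.0442). Its direction was the same in 4 of 4 pairs. Both calls were open to the choice of arrays. The hypoxic call did not survive the removal of any of the 8 arrays, with values from -0.97 to -0.85 and limma adjusted p from 0.0627 to 0.704. Over both conditions it was kept in 2 of them, without wild-type or knockout normoxia replicate 2, with values from -0.74 to -0.61 and limma adjusted p from 0.0288 to 0.0992. With the set as a random block the p were 0.996 and 0.119, and with no replicate block 1 for each (limma, adjusted).

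**Figure D3:**
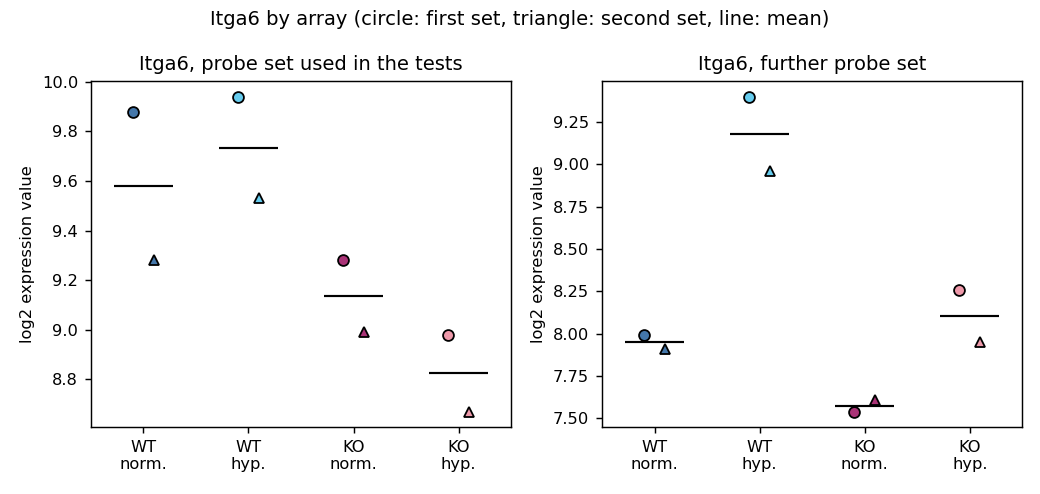
Log2 expression values of Itga6 per array for its 2 probe sets, by group, with circles for the first and triangles for the second set and a line at the mean of 2 arrays. The axes do not start at 0. In the left panel the hypoxic knockout arrays lie below both wild-type ones and the normoxic groups meet at 9.28, and in the right panel all hypoxic arrays are higher than the normoxic arrays of the same genotype.

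The hypoxia response of Itga6 differed between its probe sets. By the one used in the tests it was 0.16 ± 0.098 in wild type (SE, limma adjusted p = 0.328), with 0.06 and 0.25 in the sets, and -0.31 ± 0.098 in knockout (limma adjusted p = 0.0818), with -0.30 and -0.32. By the other it rose by 1.23 ± 0.13 in wild type (limma adjusted p = 0.00154), from 7.99 and 7.91 to 9.40 and 8.96. In knockout that probe set read 7.54 and 7.61 in normoxia and 8.26 and 7.95 in hypoxia, a change of 0.53 ± 0.13 that did not pass (limma adjusted p = 0.0513). The interaction, which is the knockout response minus that of wild type, was -0.47 ± 0.14 by the first and -0.70 ± 0.19 by the second probe set, with limma adjusted p of 1 and 0.999. No gene passed the interaction in the limma fit (0%), and at an unadjusted p under 0.05 there were 329 of all genes (2.41%) and 1 of the 26, Itga6.

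Some markers of other cells differed by genotype too. Of 12 tested macrophage and leukocyte markers, 6 were lower in the knockout over both oxygen conditions, none was higher, and all 12 had a negative difference, with a median of -1.40. The 6 tested muscle markers were also all negative (median -1.31), and none was called. For muscle the sets differed. In the first set the mean of all 8 muscle markers was 6.90 for wild type against 4.57 for knockout under normoxia. Under hypoxia it was 6.99 against 4.88. In the second set the knockout mean was not lower, with 4.68 against 4.76 under normoxia and 4.72 against 5.01 under hypoxia. Of 6 megakaryocyte markers, Pf4 was lower by -1.47 ± 0.092 (limma adjusted p = 8.3e-04) and was called in each oxygen condition as well, while Ppbp had a difference of 0.95 that did not pass (limma adjusted p = 0.496). The 4 tested endothelial markers all had a positive difference (median 0.10), and none was called. The 3 tested Schwann and neural crest markers were all negative (median -0.14), again without a call. The part of these cells in the Itga6 result was not tested. Of 12 fibroblast markers, Pdgfra and Dcn were called lower, at -0.72 ± 0.067 and -0.51 ± 0.061 (limma adjusted p = 0.0111 and 0.0225). The other 10 did not pass. The median of the 12 was -0.075, with 8 negative and 4 positive differences. Epithelial markers, which include the tissue where alpha 6 pairs with beta 4, had a mean of 5.22 to 5.61 per array with Cdh1 and Esrp1 below the filter and none called by genotype in the limma fit over both oxygen conditions. Among them Krt8 had a difference of -0.61 and Krt18 of -0.57 (limma adjusted p = 0.0742 and 0.17). Itgb4 itself lay between 4.51 and 4.98, with a genotype difference of 0.08.

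None of the other 25 tested genes differed by genotype in any comparison. In normoxia no gene of the 26 was called, against 0.0366% of all genes, and 2 had an unadjusted p under 0.05 by limma, Itga6 and Lama4, against 6.7%. The median genotype difference of the 26 was -0.06 in normoxia and 0.02 in hypoxia, and that of all genes -0.02 and 0. Itga8 was somewhat higher in the knockout in 4 of 4 pairs, by 0.20 to 0.43, without a call (0.27 ± 0.078, limma adjusted p = 0.297). Lama5 (0.22) was higher, and Itga7 (-0.175) and Itgb3 (-0.215) lower, in 4 of 4 pairs too, also without a call. Itga4, the alpha 4 chain, which is carried by leukocytes and by some mesenchymal cells and binds VCAM1 and fibronectin, gave -0.55 ± 0.22 (limma adjusted p = 0.457), at -1.12 for the first set and 0.02 for the second.

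More of these genes differed between the sets than with oxygen or genotype. Of the 26 genes, 13 were called between the second and the first set, 9 higher and 4 lower, against 46.1% of all genes (25.4% and 20.7%), so their share of 50% is near that of any gene. The fibronectin receptor chain Itga5 was 7.08 to 7.23 in the 4 arrays of the first set and 8.19 to 8.57 in the second, a difference of 1.19 ± 0.079 (limma adjusted p = 2.2e-05). A further probe set of Itga5 gave 0.58 and was called, and the other 2 gave 0.05 and -0.30 and were not. Over the genes, 17 of 39 further probe sets were called between the sets, 12 higher and 5 lower, against 32.0% of all probe sets. Itgb5 and Lama4 were not called by the probe sets used. A further one of Itgb5 read 9.64 to 9.87 in the first set and 10.37 to 10.50 in the second. That of Lama4 read 6.32 to 7.19 and then 5.68 to 6.27. Itga1 differed by 0.95, Itgb3, the partner of alpha v in the vitronectin receptor, by 0.77 and Itga9 by 0.59. Lamb2, Itga8, Itgav, Itgb1 and Lamb1 were higher by 0.46 to 0.20, and the calls of Lamb2, Itgb1 and Lamb1 were kept in only 2, 2 and 4 of the 8 fits without 1 array. Itga4 went the other way, at 7.71, 7.80, 6.64 and 6.63 in the first set (wild type in normoxia and hypoxia, then knockout) and 5.60, 5.70, 5.51 and 5.82 in the second. Its difference was -1.54 ± 0.22 (limma adjusted p = 6.9e-04), with about -2.1 in wild type and -1.13 and -0.81 in knockout, and it was kept in all 8 fits without 1 array, between -1.78 and -1.35. Of the 12 macrophage and leukocyte markers tested, 9 were lower in the second set too. Among 4 tested endothelial markers Kdr and Tek were called lower, at -0.90 and -0.56, and 2 did not pass. Of 6 tested muscle markers only Chrna1 was called, at -1.09. Among 6 megakaryocyte markers Pf4 was lower, at -1.43, Ppbp was higher by 2.37 and 4 did not pass. Of 9 tested epithelial markers, Krt8 and Cldn4 were higher by 0.68 and 0.39, Dsp was lower, at -0.575, and 6 did not pass. The part of these cells in the differences between the sets was not tested. Itgb8 (-0.70), Itga6 (-0.40) and Lamc1 (-0.34) were the others that were lower.

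**Figure D4:**
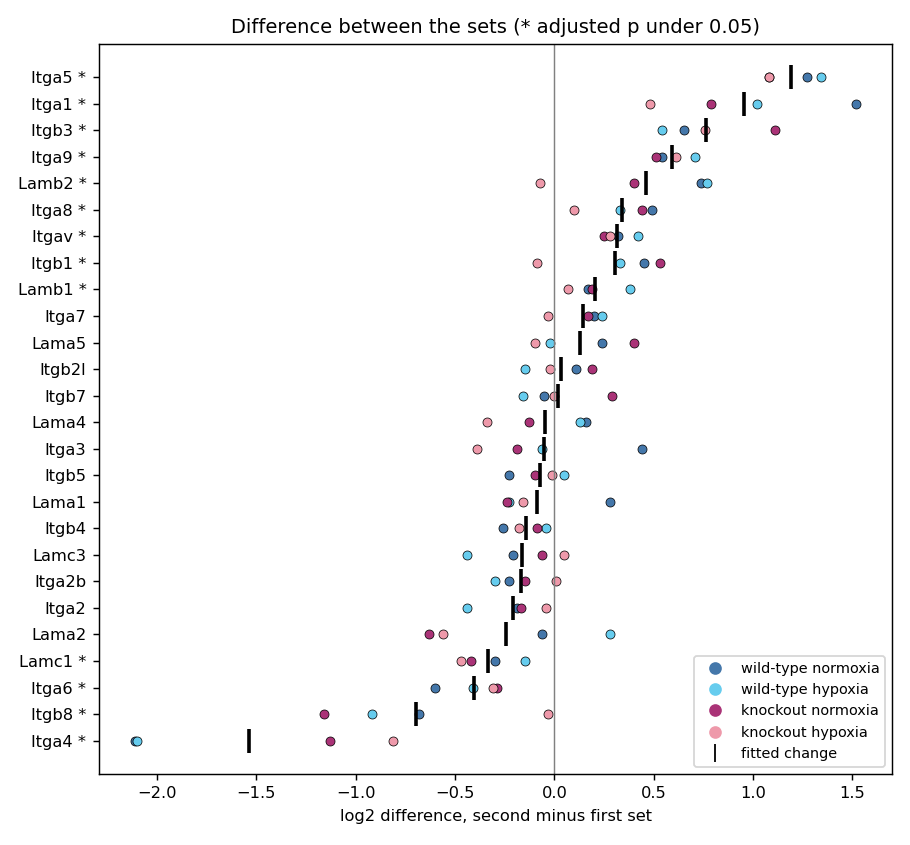
Second-set minus first-set log2 values for the 26 tested genes, with a point for each group and a bar for the fitted change, and an asterisk for an adjusted p under 0.05. Itga5, Itga1, Itgb3 and Itga9 lie right of 0 in all 4 groups, and Itga4 and Itga6 lie left of 0 in all 4.

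The 5 genes below the filter are chains of leukocytes, epithelia or cartilage. Itgb2, the common beta chain of leukocyte integrins, was 5.12 and 4.37 in normoxic wild type and 3.68 to 4.14 in the other 6 arrays. Its highest value fell in the array with the highest macrophage marker mean, 7.80. The arrays that came next were the same in both orders but swapped places, and the rest of the orders differed in part. Wild-type hypoxia of the first set, with a marker mean of 7.28, read 4.14. Wild-type normoxia of the second set, with a marker mean of 6.32, read 4.37. The part of macrophages in these values was not tested. In a fit without the filter the genotype difference of Itgb2 over both oxygen conditions was -0.55 ± 0.15 (limma adjusted p = 0.31). Itga10, a collagen receptor chain of cartilage, was just below the filter at a mean of 4.11 and was lower in hypoxia there, by -0.47 ± 0.11 (limma adjusted p = 0.0185). Itgb6, Lama3 and Lamb3, chains of epithelial integrin and laminin, lay between 2.84 and 4.16. The leukocyte alpha chains named by letters, Itgal, Itgam and Itgae, were below the filter too, and Itgax was just above it, at 4.25 to 4.85, with no call in any comparison.

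Partners of these receptors were followed as lists. The list for the integrin adhesome holds proteins that link integrins to actin and others, among them Cd47, Cd9, Cav1 and the set-aside Itgb3bp. Of its 37 tested genes, 10 rose and 8 fell with hypoxia over both genotypes and 19 did not pass (median -0.04). Among all genes 13.6% rose and 15.2% fell. Parvb, the beta parvin of the complex with integrin-linked kinase, rose by 0.84 ± 0.12, and Src, a kinase at adhesions, by 0.67 ± 0.089. Rsu1, a partner of that complex, fell by 0.50 ± 0.056 and Actn1, an actin crosslinker, by 0.31 ± 0.039. These 4 had limma adjusted p of 0.00157, 0.00137, 7.2e-04 and 0.00112. In knockout, Cd47 and the tetraspanin gene Cd9 rose by 0.46 and 0.30. By genotype, 1 of the 37 was called, Fermt3, the kindlin of blood cells, at -1.63 ± 0.15 (limma adjusted p = 0.0111), beside the lower macrophage markers given above.

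Among 18 tested partners of laminin in basement membranes, 2 rose and 6 fell with hypoxia over both genotypes and 10 did not pass (median -0.10), against the same 13.6% and 15.2% of all genes. Smoc2, a matricellular protein, rose by 0.64 ± 0.07 and Dag1, the laminin receptor dystroglycan, by 0.35 ± 0.063 (limma adjusted p = 6.4e-04 and 0.00486). Col4a2, a chain of type IV collagen, fell by 0.34 ± 0.074 (limma adjusted p = 0.0112). Of 20 tested matrix ligands of integrins, 2 rose, 2 fell and 16 did not pass (median -0.12). Among all genes 13.6% rose and 15.2% fell, and no difference in share is read from so few genes. Tgfbi fell by 0.45 ± 0.065, while the thrombospondin gene Thbs2 rose by 0.37 ± 0.075 and Edil3 by 0.40 ± 0.093 (limma adjusted p = 0.00205, 0.0083 and 0.0143). None of either list was called by genotype over both oxygen conditions.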

How the data were processed

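Biotin-labelled cRNA from 5 ug of total RNA was hybridised to 1 array per sample, per the labels' protocols. The deposited table holds log2 expression values from RMA, per the submitters' processing notes, which give no version and do not say if all arrays entered 1 run. RMA forces a common distribution on the arrays, so a change of all transcripts together would not be seen. Array medians lay between 5.01 and 5.12, and no further normalization was applied. The number of arrays limits the precision.

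Of 45037 probe sets other than 64 controls, 34945 had 1 symbol in the platform annotation, 932 several (not used) and 9160 are unnamed here. Symbols were updated by Entrez identifier with a RefSeq table of GRCm38.p6 (34741 matched). Of 18193 genes, 13647 passed the filter at the 25th percentile.

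R 4.3.3 and limma 3.58.1 were used: 4 group means and the set as a further term over all 8 arrays (3 residual degrees of freedom, plus 5.22 from moderation), eBayes with a trend, and Benjamini-Hochberg adjustment over all tested genes, with a call at an adjusted p under 0.05. The set entered as a block because the labels mark the second arrays and the sets deviate together: the correlation of the second minus first set difference across genes was 0.71 to 0.85 for the pairs of groups. The fit was tested on simulated data. Genes, lists and comparisons were chosen with earlier results of these data known. Every member could be named; from other lists, up to 4 genes with the smallest p per comparison, besides Egln2 and 6 HIF-driven genes. Alternatives were no block, a random block, other filters, averaged probe sets, median centring, no trend, only the groups compared and leaving out each array.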

Additional observations from a re-analysis of the deposited data

How the results depend on the processing

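Of the 26 tested genes, the calls depended on the set. With no replicate block, 0 were called for hypoxia in either genotype or over both, and 0 for genotype in hypoxia or over both oxygen conditions (limma), and over all genes the hypoxia calls went from 2237 to 20, from 1380 to 12 and from 3922 to 99. With the set as a random block, 0 were called by genotype in hypoxia and 0 over both oxygen conditions. With no trend, 1 was called for hypoxia in knockout and 0 in those genotype comparisons. With only the groups compared, 0 were called for hypoxia in knockout and 0 for genotype in hypoxia. With probe sets averaged, 1 was called for hypoxia in knockout, and Itgav between sets turned to -0.0265 (limma adjusted p = 0.811). In a fit of all probe sets, chosen after seeing the data, 0 were called for genotype in hypoxia. The median log2 change of the genes moved as well. Under the stricter filter it was -0.145 for hypoxia in wild type, -0.185 in knockout, -0.135 for the 2 genotypes together and 0.015 for genotype in normoxia. With no filter it was 0.05 for hypoxia in knockout. With averaged probe sets it was 0.0015 for hypoxia in knockout, -0.01 for genotype in normoxia and 0.0092 over both oxygen conditions. With centred arrays these were 0.0125, -0.015 and 0.0112, and the fit of all probe sets gave -0.0313 for the last. Without 1 array, 1 to 3 genes were called for hypoxia in wild type, 1 to 4 in knockout and 3 to 6 for the 2 genotypes together, with medians of -0.0733 to 0.0067, -0.0592 to 0.0325 and -0.03 to 0.0308. By genotype it was 0 in normoxia and in hypoxia and 0 to 1 over both oxygen conditions, with medians of -0.0925 to -0.025, -0.0292 to 0.0417 and -0.0433 to 0.0117. For the interaction 0 were called, with medians of -0.035 to 0.1167, and between sets 10 to 13 were called. The causes were not tested. The direction of each other named call was kept under the alternatives run.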
